A study of Homo sapiens with 6 samples.

Results

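The genes described here are ATF4, a set of genes known as its targets, and genes of aminoacyl-tRNA synthetases. They were measured in OCI-AML2, a human cell line from acute myeloid leukaemia, with or without knockout of IKZF1. The list of 44 genes was fixed by name, with earlier results of these data known. Its shares beside those of all genes are therefore descriptions and not tests. All 44 were found by Ensembl identifier among the 58233 identifiers of the count table. The list holds 10 regulators, 5 enzymes of serine and mitochondrial one-carbon metabolism, and 7 enzymes of asparagine, proline, cysteine and transaminase metabolism. It also holds the receptor VLDLR and the secreted protein STC2, 8 amino acid transporters, 11 cytosolic tRNA synthetases and the tRNA export receptor XPOT. Polyadenylated RNA of 6 libraries was sequenced, 3 labelled NT control (a non-targeting control) and 3 labelled IKZF1-ko (CRISPR knockout of IKZF1, which encodes the transcription factor Ikaros). All were grown in the same medium, with serum and added glutamine, and no drug is named for them. The design text speaks of 3 lines in each group, while the protocol speaks of RNA isolated in triplicate. Whether the replicates are separate lines or repeat isolations is therefore not settled. No source used here gives the guides or says whether a knockout line is 1 clone. If the replicates are repeat isolations, the p-values measure only the spread between them, which may be technical.

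ATF4 is the transcription factor of the integrated stress response. Kinases that sense amino acid shortage, haem shortage, unfolded protein or viral RNA phosphorylate the initiation factor eIF2, which slows most translation while ATF4 messenger RNA is translated more, so ATF4 protein can rise without a change in its transcript. ATF4 then raises genes that make amino acids, import them and charge them onto tRNA. Leukaemia cells are known to depend on several of these routes, and asparagine depletion is a standard treatment in acute lymphoblastic leukaemia.

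The libraries divided in a way that the group labels do not explain. The first principal component, with 67.6% of the variance, set IKZF1-ko replicate 1 and NT control replicate 2 (scores of 50.1 and 39.5) against the other 4 libraries (-29.1 to -16.3). The same division, with 67.5% of the variance, was found without the listed genes. Results are therefore given for the 4 libraries (NT control replicates 1 and 3, IKZF1-ko replicates 2 and 3), for the remaining 2 as a pair with no replicate, and for all 6. Within the 4 libraries, replicates of a group were close: the chi-square per degree of freedom was 2.22 for the NT control libraries and 2.23 for the IKZF1-ko libraries, against 49.8 to 58.2 for replicates of a group on opposite sides. Totals ran from 11300519 to 18214328 counts, and both IKZF1-ko libraries of the 4 were deeper than both NT control libraries. IKZF1 itself stood at 331, 291 and 334 CPM (counts scaled to a common library total) in NT control replicates 1 to 3 and at 420, 426 and 436 CPM in the IKZF1-ko replicates, which neither shows nor tests an edit that leaves the transcript in place, and the group names are those of the labels. The 7 myeloid markers (PTPRC, SPI1, CD33, MPO, CEBPA, LYZ and ANPEP) summed to 1113 to 1231 CPM per library, with ANPEP under 1 CPM. T cell, erythroid and epithelial markers were at or near 0. Of the fibroblast markers, only PDGFRB was detected above 1 CPM, and it was highest in the pair, at 36.1 CPM for NT control and 51.8 CPM for IKZF1-ko; its part in the results was not tested.

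Because the listed genes are grouped by a shared activator, the DNA around their start sites is shown first. ATF4 binds with C/EBP partners at a composite element whose core was searched here as TGATGNAA, on both strands, in RefSeq windows from 250 bases before to 50 bases after each annotated start (GRCh38.p14). Of the 36 listed genes with a window, 16 (44.4%) held the core, against 1217 of 27305 genes in the table (4.46%). Counted by window, which allows for genes with several starts, the shares were 27.1% of 59 and 3.62% of 35116. The core was in 7 of 10 synthetase genes on the list, 4 of 7 transporters, 3 of 8 regulators and 0 of 3 serine and one-carbon enzymes. Among cytosolic synthetases outside the list, 0 of 6 held it. The list was fixed by name around known ATF4 targets, so these shares describe it and are not a test. To show the cores and the bases around them, all 16 sites follow, each of 30 bases (24 in SLC3A2, where the window ends), written 5′ to 3′ on the strand that carries the core, with the core in capitals.
ATF3: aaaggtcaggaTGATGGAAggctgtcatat
CHAC1: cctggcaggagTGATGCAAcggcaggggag
JDP2: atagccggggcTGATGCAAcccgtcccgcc
ASNS: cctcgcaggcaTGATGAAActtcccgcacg
GOT1: gctgccgagaaTGATGCAAccaatgcaatt
SLC7A1: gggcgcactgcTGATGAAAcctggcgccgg
SLC3A2: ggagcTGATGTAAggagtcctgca
SLC1A5: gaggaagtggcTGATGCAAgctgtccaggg
SLC1A4: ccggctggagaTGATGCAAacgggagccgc
AARS1: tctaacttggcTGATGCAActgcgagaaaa
CARS1: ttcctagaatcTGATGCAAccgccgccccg
GARS1: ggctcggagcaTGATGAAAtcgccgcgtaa
IARS1: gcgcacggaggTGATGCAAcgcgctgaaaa
MARS1: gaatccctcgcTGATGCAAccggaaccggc
NARS1: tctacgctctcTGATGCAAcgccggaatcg
TARS1: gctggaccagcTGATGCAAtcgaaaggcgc
The core reads TGATGCAA in most of these and TGATGAAA in ASNS, SLC7A1 and GARS1, TGATGGAA in ATF3 and TGATGTAA in SLC3A2. The sites lie at chr1:212565205-212565234 for ATF3, chr15:40953251-40953280 for CHAC1, chr14:75427995-75428024 for JDP2, chr7:97872458-97872487 for ASNS, chr10:99430804-99430833 for GOT1, chr13:29595663-29595692 for SLC7A1, chr11:62881725-62881748 for SLC3A2, chr19:46784893-46784922 for SLC1A5, chr2:64989381-64989410 for SLC1A4, chr16:70289675-70289704 for AARS1, chr11:3057407-3057436 for CARS1, chr7:30594834-30594863 for GARS1, chr9:92293692-92293721 for IARS1, chr12:57488053-57488082 for MARS1, chr18:57621804-57621833 for NARS1 and chr5:33440956-33440985 for TARS1. Those of ASNS, SLC7A1, SLC1A5 and NARS1 are on the minus strand as the gene is, those of ATF3 and JDP2 are on the plus strand as the gene is, and the others are opposite to their gene. A match is a description of these letters, and binding was not measured.

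The 250 bases before the RefSeq start are shown for 2 genes that the results turn on, ASNS, the asparagine synthetase gene (chr7:97872409-97872658, minus strand), and CHAC1, which encodes an enzyme that degrades glutathione (chr15:40953221-40953470, plus strand). Both are written on the gene's strand with the core in capitals; in CHAC1 it reads as its reverse complement.
ASNS: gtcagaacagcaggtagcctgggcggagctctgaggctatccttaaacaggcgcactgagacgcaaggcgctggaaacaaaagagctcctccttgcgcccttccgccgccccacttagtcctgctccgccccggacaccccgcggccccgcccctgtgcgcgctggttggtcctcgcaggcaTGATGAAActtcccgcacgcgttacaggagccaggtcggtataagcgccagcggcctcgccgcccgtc
CHAC1: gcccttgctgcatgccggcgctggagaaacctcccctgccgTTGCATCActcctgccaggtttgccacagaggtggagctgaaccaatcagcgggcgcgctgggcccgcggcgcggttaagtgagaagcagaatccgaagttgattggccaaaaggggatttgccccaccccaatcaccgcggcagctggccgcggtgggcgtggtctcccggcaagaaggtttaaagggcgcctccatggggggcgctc
In ASNS the core begins at position -68 from the start, and in CHAC1 at position -209.

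**Figure D1:**
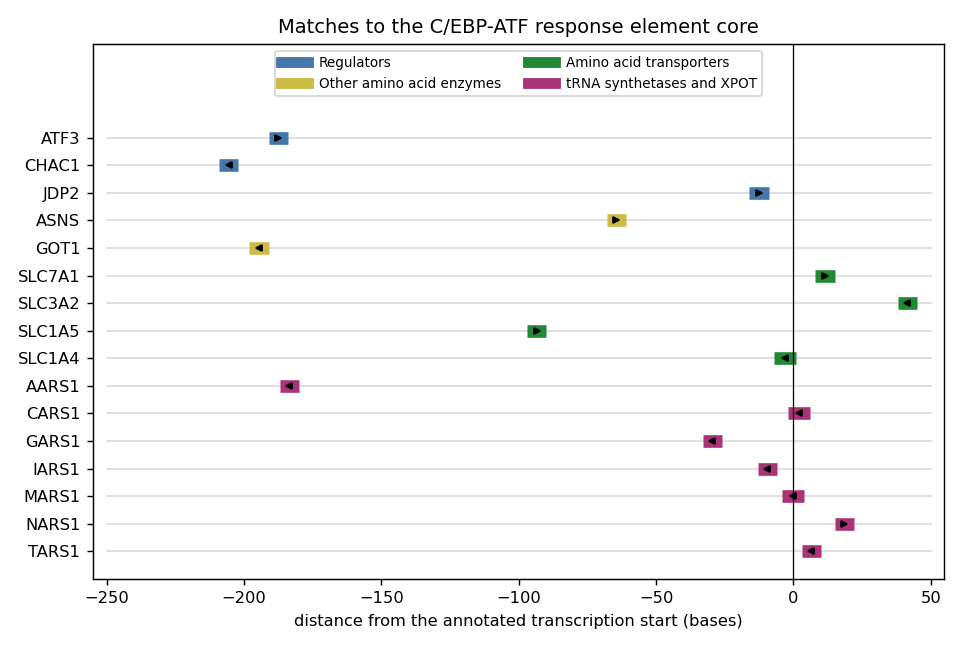
Position of each TGATGNAA match in the 16 listed genes that hold one, in bases from the annotated transcription start (vertical line at 0), with grey lines for the searched window and arrowheads for the strand relative to the gene (right, same strand). Matches in CARS1, GARS1, IARS1, MARS1, NARS1 and TARS1 lie close to the start, while those of AARS1, ATF3, CHAC1 and GOT1 lie farther upstream.

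In the 4 libraries, many of the listed genes were somewhat higher with IKZF1 knockout and none passed the test as lower. Of 43 tested, 27 (62.8%) rose and 0 fell, by the quasi-likelihood test of edgeR at an adjusted p under 0.05; over all 12951 genes tested, 7.64% rose and 7.10% fell. DESeq2 called 22 as higher, against 3.47% of all genes. The median log2 fold change was 0.22, against 0.00 over all genes. Rises were small: leaving out NUPR1 and STC2, which had under 10 counts in both NT control libraries and so passed the filter through IKZF1-ko alone, they ran from 1.09-fold to 1.70-fold in 25 of 41 genes. Both IKZF1-ko libraries were above both NT control libraries for 38 of the 43 genes (88.4%, against 27.7% of all genes). The 38 include NUPR1 and STC2, whose separation follows in part from the filter. With counts thinned to equal depth, 27 of 42 genes passed, with EIF4EBP1 gained and STC2 no longer tested. In bulk RNA of a cell line, a higher level in every cell and more cells with a high level cannot be told apart.

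In the pair, most of the same genes lay on the other side. IKZF1-ko replicate 1 was below NT control replicate 2 for 36 of the 43 genes (83.7%, against 50.0% of all genes), and at least 1.25-fold below for 16 (37.2%, against 12.6% of all genes). It was at least 1.25-fold above for 1 gene, NUPR1, against 12.4% of all genes. Of the 27 genes that rose in the 4 libraries, 22 (81.5%) were lower in IKZF1-ko replicate 1; the background for genes called higher in the 4 libraries is 19.9%. These values compare 2 libraries, with exact 95% intervals that cover counting error only: the interval lay below 0 for 32 genes, above 0 for 4 and included 0 for 7. The difference between the 2 contrasts was tested in edgeR as the interaction of library division and group, with the spread taken from the 4 libraries because the pair has none. It passed for 29 of 41 genes (70.7%), all with the pair below the 4 libraries, against 1.57% of all genes in that direction and 2.26% in either. The same term in DESeq2 called 19 of these genes, against 0.430% of all genes in that direction. Both tests take the single libraries of the pair to vary like replicates within the 4, which were much closer than replicates across the division, so these p-values do not cover variation between such libraries and are too small if the pair varies more.

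**Figure D2:**
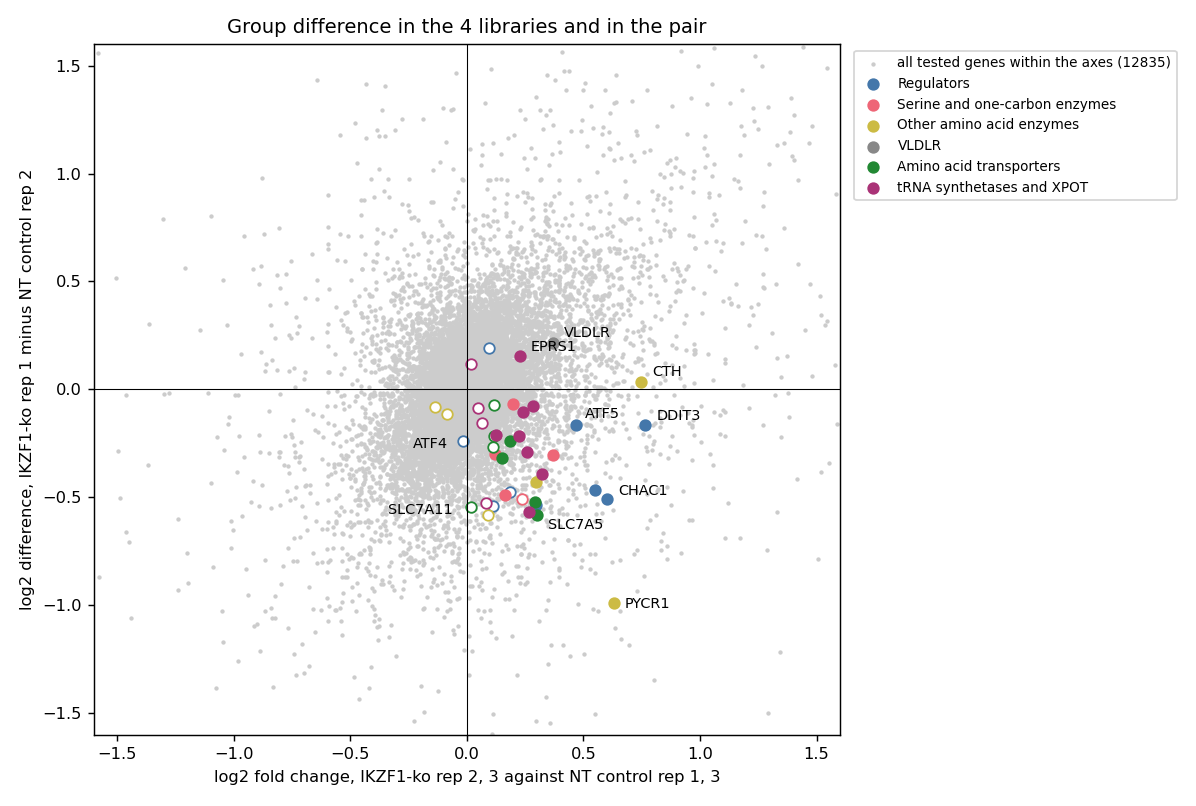
Log2 fold change of IKZF1-ko against NT control in the 4 libraries (horizontal axis) and log2 difference of the single pair (vertical axis). Grey points are 12835 tested genes within the axes, coloured points are 41 of the listed genes by role (filled, passed the edgeR test in the 4 libraries), and NUPR1 and STC2 fall outside the axes. Most coloured points lie right of 0 and below 0, and PYCR1 lies lowest.

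With all 6 libraries and group alone, as the study's design reads, edgeR called 0 of the 41 listed genes tested, as it called 0 over all 13028 genes. The log2 fold changes ran from -0.12 to 0.58 with a median of 0.07. At an unadjusted p under 0.05, edgeR passed 1 listed gene, VLDLR, against 3.50% of all genes. At an adjusted p under 0.05, DESeq2 called 0 listed genes and 71 genes in all. The groups did not overlap for 1 of these 41 genes, against 9.35% of all genes.

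The pair also stood apart in level, whatever the group. Both of its libraries were below all 4 others for 33 of the 43 genes (76.7%, against 31.9% of all genes), and above all 4 for ATF5 and DDIT3 only. The transporters had the lowest median difference of the pair from the 4 libraries among the roles (log2 -1.01, against -0.58 over the whole list). Their summed level was 2478 and 2482 CPM in NT control replicates 1 and 3, 2867 and 2863 CPM in IKZF1-ko replicates 2 and 3, and 1503 CPM (NT control) and 1189 CPM (IKZF1-ko) in the pair. The 11 synthetases summed to 3256, 3312, 3717 and 3719 CPM in the same order of the 4, and to 2541 and 2322 CPM in the pair. For the 5 serine and one-carbon enzymes the sums were 1532, 1491, 1762 and 1736 CPM, and then 1315 and 1084 CPM. Each of these sums was highest in the 2 knockout libraries of the 4 and lowest in the knockout library of the pair.

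**Figure D3:**
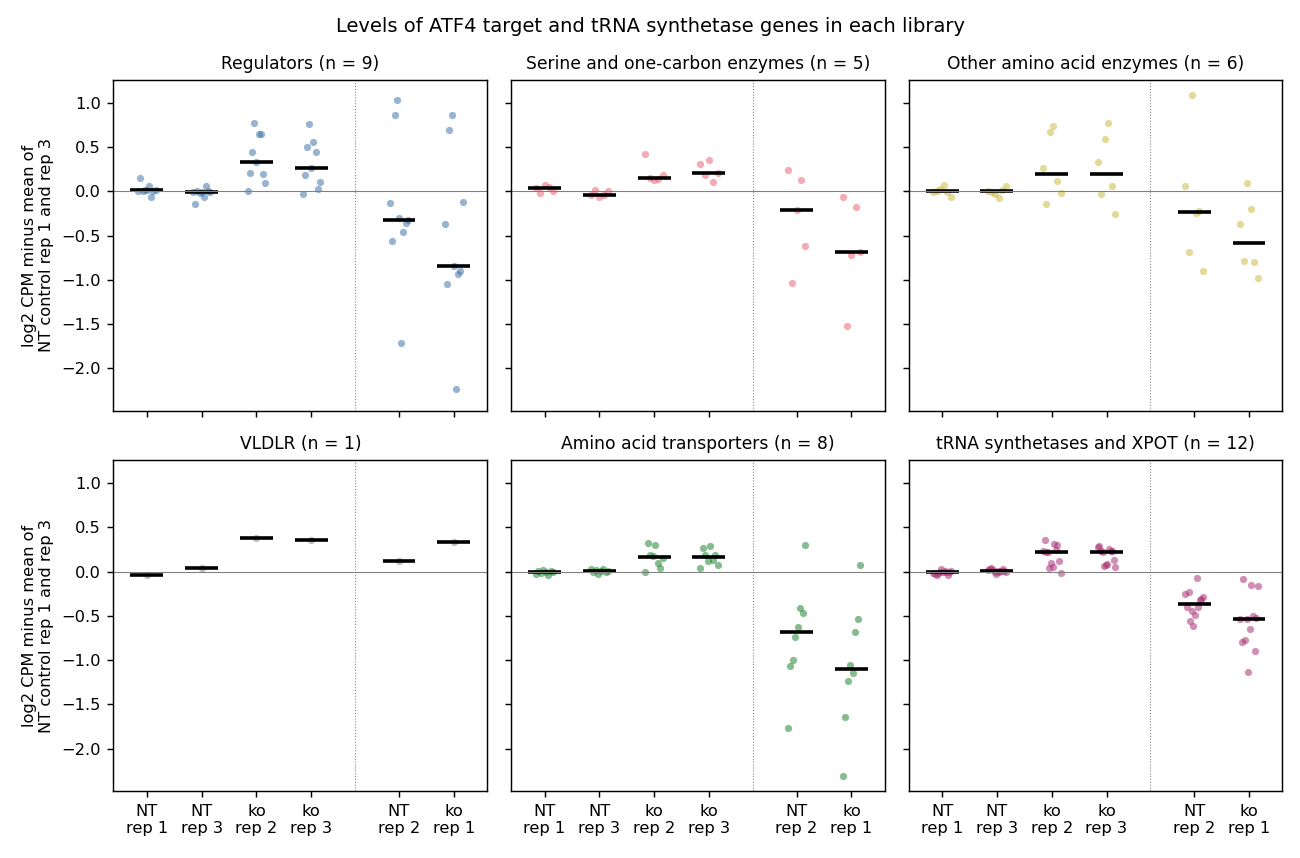
Log2 CPM of each listed gene minus its mean over NT control replicates 1 and 3, by library and role, for genes at 1 CPM or more in every library (n in each panel); points are genes and black bars are medians, not errors. The transporter medians fall to -0.69 and -1.10 in the NT control and IKZF1-ko libraries of the pair, while those of IKZF1-ko replicates 2 and 3 are 0.17 and 0.16.

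ATF4 transcript itself did not pass the test in the 4 libraries. It stood at 730 and 725 CPM in NT control replicates 1 and 3, 727 and 714 CPM in IKZF1-ko replicates 2 and 3, and 666 and 564 CPM in the pair, where NT control is always given first (gene at chr22:39519695-39522685, plus strand, GRCh38). The groups overlapped in the 4 libraries, with a log2 fold change of -0.02 (SE 0.04, edgeR adjusted p = 0.853). In the pair the log2 difference was -0.24 (95% counting interval -0.28 to -0.20), and the interaction did not pass (log2 -0.22, edgeR adjusted p = 0.0839). The transcript does not report on ATF4 protein, which was not measured here.

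Of the 10 regulators, 6 rose and 0 fell in the 4 libraries, against 7.64% and 7.10% of all genes. The 6 include NUPR1, which passed the filter through IKZF1-ko alone. ATF5, a related bZIP factor that is also under translational control, was at 259 CPM in both NT control libraries, 351 and 365 CPM in the IKZF1-ko libraries, and 471 and 420 CPM in the pair. The knockout was 1.38-fold higher in the 4 libraries (log2 0.47, SE 0.04, edgeR adjusted p = 3.05e-09), without overlap, yet lower in the pair, where both libraries exceeded all others. DDIT3, which encodes the stress factor CHOP, was at 11.4 and 11.1 CPM in NT control replicates 1 and 3, 19.2 and 19.0 CPM in IKZF1-ko replicates 2 and 3, and 22.9 and 20.4 CPM in the pair. Its rise of 1.70-fold in the 4 libraries (edgeR adjusted p = 3.04e-05) had the largest ratio among called genes other than NUPR1 and STC2, and the interval of the pair, log2 -0.39 to 0.06, included 0. DDIT3 and MARS1 share exon positions on opposite strands, so their counts are uncertain where the counting ignored strand.

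CHAC1 was at 23.6 and 21.7 CPM in NT control replicates 1 and 3, 35.4 and 33.2 CPM in IKZF1-ko replicates 2 and 3, and 6.88 and 4.80 CPM in the pair. It rose 1.52-fold in the 4 libraries (log2 0.60, SE 0.09, edgeR adjusted p = 1.85e-05), and NT control differed 3.29-fold between the 4 libraries and the pair, more than knockout differed from control within them. TRIB3, a pseudokinase that restrains ATF4 and CHOP activity, was at 237, 232, 294 and 281 CPM in the 4 libraries and 190 and 131 CPM in the pair. It rose in the 4 (log2 0.29, edgeR adjusted p = 1.77e-05) and was lower in the knockout of the pair (log2 -0.54). JDP2, a bZIP repressor of AP-1, gave the same pair of signs, with log2 0.55 (edgeR adjusted p = 5.90e-05) and -0.47. NUPR1, a small stress-induced chromatin protein, had 3 and 1 counts in NT control replicates 1 and 3, 38 and 25 in IKZF1-ko replicates 2 and 3, and 4 and 9 in the pair. Its summed counts in the 4 libraries gave a ratio of 10.4 (95% counting interval 3.86 to 39.3). NUPR1 passed the test (edgeR adjusted p = 2.28e-04), but it entered the test through its IKZF1-ko counts alone, and DESeq2 did not call it.

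The 4 regulators that did not pass in the 4 libraries were ATF4, ATF3, EIF4EBP1 and EIF2AK4. ATF3, an early stress factor, was at 10.3 and 8.39 CPM against 10.7 and 10.6 CPM, and at 6.27 and 4.47 CPM in the pair (edgeR adjusted p = 0.444 in the 4). EIF4EBP1, which encodes the translation inhibitor 4E-BP1, had 218 and 219 CPM against 251 and 222 CPM in the 4 libraries (log2 0.11, edgeR adjusted p = 0.129) and 171 against 117 CPM in the pair. Its interaction passed (log2 -0.66, edgeR adjusted p = 2.46e-05). EIF2AK4, which encodes the amino acid sensing kinase GCN2, was the regulator apart from NUPR1 with a higher value in both knockout contrasts, at log2 0.10 (edgeR adjusted p = 0.286) and 0.19 (95% counting interval 0.07 to 0.32).

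Serine synthesis and mitochondrial one-carbon enzymes were higher in both knockout libraries of the 4 for all 5 genes, and 4 passed. The same shares over all genes were 27.7% and 7.64%. PHGDH, the first enzyme of serine synthesis (chr1:119648411-119744226, plus strand), stood at 341 and 324 CPM in NT control replicates 1 and 3, 447 and 414 CPM in IKZF1-ko replicates 2 and 3, and 392 and 318 CPM in the pair. The rise was 1.29-fold in the 4 libraries (log2 0.37, SE 0.04, edgeR adjusted p = 5.18e-07), the knockout of the pair was 1.23-fold lower (95% counting interval log2 -0.36 to -0.25), and the interaction was log2 -0.67 (edgeR adjusted p = 8.42e-07). PSAT1, the transaminase of the next step, was at 315, 322, 352 and 362 CPM in the 4 libraries and 155 and 111 CPM in the pair. It rose by less in the 4 (log2 0.16, edgeR adjusted p = 0.00705), a call that was lost without NT control replicate 1 (edgeR adjusted p = 0.0699).

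PSPH, the phosphatase that completes serine synthesis, did not pass in the 4 libraries, with 31.5 and 28.7 CPM against 32.8 and 38.3 CPM (log2 0.24, edgeR adjusted p = 0.0759), and was at 26.0 and 18.2 CPM in the pair. SHMT2, which moves a carbon from serine to folate in mitochondria, was at 475 and 446 CPM against 508 and 494 CPM (log2 0.12, edgeR adjusted p = 0.0493), and lost the call in 2 of the 4 fits that leave a library out. MTHFD2, the folate dehydrogenase that follows it, was at 370 CPM in both NT control libraries and at 421 and 427 CPM in IKZF1-ko (log2 0.20, edgeR adjusted p = 9.65e-04). In the pair MTHFD2 was at 241 and 230 CPM, and the interval of log2 -0.14 to 0.00 included 0. All 5 genes passed the interaction, with log2 values from -0.75 for PSPH to -0.27 for MTHFD2, against 1.57% of all genes in that direction.

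Of the 7 enzymes of asparagine, proline, cysteine and transamination, 6 could be tested and 3 rose, against 7.64% of all genes. ASNS, which makes asparagine from aspartate (chr7:97852118-97872542, minus strand), was at 196 and 197 CPM in NT control replicates 1 and 3, 236 and 247 CPM in IKZF1-ko replicates 2 and 3, and 205 and 152 CPM in the pair. The 2 contrasts pointed in opposite ways, 1.23-fold higher in the 4 libraries (log2 0.29, SE 0.05, edgeR adjusted p = 2.45e-05) and 1.35-fold lower in the pair (95% counting interval log2 -0.51 to -0.35). The interaction was log2 -0.73 (edgeR adjusted p = 3.23e-07). PYCR1, which completes proline synthesis in mitochondria, had the largest interaction of the listed genes (log2 -1.63, edgeR adjusted p = 7.61e-06). Its levels were 10.1 and 9.70 CPM in NT control replicates 1 and 3, 15.7 and 14.9 CPM in IKZF1-ko replicates 2 and 3, and 21.1 and 10.5 CPM in the pair. NT control replicate 2 was thus the highest of the 6 libraries, and PYCR1 shares exon positions with MYADML2 on the same strand, so its counts are uncertain.

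CTH, which makes cysteine from cystathionine, was not lower in the knockout of the pair. It was at 10.8 and 9.79 CPM in NT control replicates 1 and 3, 17.1 and 17.6 CPM in IKZF1-ko replicates 2 and 3, and 8.72 and 8.94 CPM in the pair. The rise in the 4 libraries was 1.68-fold (log2 0.75, SE 0.12, edgeR adjusted p = 8.35e-05), and the interval of the pair was log2 -0.32 to 0.40. CBS, the enzyme before CTH, had 0 counts in all 6 libraries, as had CBSL, its near-identical copy in the annotation. Reads that fit both genes may have been dropped by the counting, so this 0, which by depth alone allows up to 0.265 CPM, says nothing about expression of the enzyme. GPT2, a mitochondrial alanine transaminase, did not pass in the 4 libraries (109 and 110 CPM against 119 and 114 CPM, edgeR adjusted p = 0.281), and was at 93.9 and 62.7 CPM in the pair. ALDH18A1, which starts proline synthesis, and GOT1, the cytosolic aspartate transaminase, had log2 fold changes of -0.08 and -0.14 in the 4 libraries and did not pass (edgeR adjusted p = 0.254 and 0.368).

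Among the 41 listed genes tested over all 6 libraries, VLDLR, a lipoprotein receptor, was the 1 whose groups did not overlap. The groups did not overlap for NUPR1 and STC2 either, which were not tested over all 6. VLDLR was at 133, 148 and 140 CPM in NT control replicates 1 to 3 and at 171, 177 and 175 CPM in IKZF1-ko replicates 1 to 3. The log2 fold change was 0.37 in the 4 libraries (edgeR adjusted p = 2.46e-06), 0.22 in the pair (95% counting interval 0.13 to 0.30) and 0.32 over all 6, where it did not pass (edgeR adjusted p = 0.92). STC2, a secreted glycoprotein, had 5 and 3 counts in the NT control libraries of the 4, 23 and 19 in the IKZF1-ko libraries, and 6 and 8 in the pair. The ratio of summed counts was 3.46 (95% counting interval 1.60 to 8.53), and the call in the 4 libraries (edgeR adjusted p = 0.027) was lost whichever of them was left out (0.0976 to 0.226).

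Of the 8 amino acid transporters, 4 rose in the 4 libraries and all 8 were lower in the knockout of the pair. Over all genes, 7.64% rose and 50.0% were lower in the knockout of the pair. SLC7A5, the light chain of the large neutral amino acid transporter LAT1 (chr16:87830023-87869488, minus strand), was at 682 and 674 CPM in NT control replicates 1 and 3, 851 and 819 CPM in IKZF1-ko replicates 2 and 3, and 325 and 217 CPM in the pair. It rose 1.23-fold in the 4 (log2 0.30, SE 0.04, edgeR adjusted p = 3.81e-06), and the knockout of the pair was lower (log2 -0.58, 95% counting interval -0.65 to -0.52). Its interaction, log2 -0.88, had an edgeR adjusted p of 3.85e-09. SLC3A2, the heavy chain that pairs with it at the membrane, was at 260, 251, 290 and 278 CPM in the 4 libraries and 153 and 123 CPM in the pair. Its rise was smaller (log2 0.15, edgeR adjusted p = 0.018) and was lost without IKZF1-ko replicate 2 (0.119) or NT control replicate 3 (0.163).

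SLC1A5, a glutamine transporter, was at 442, 444, 545 and 540 CPM in the 4 libraries and at 286 and 199 CPM in the pair. The 2 contrasts were log2 0.29 (edgeR adjusted p = 4.93e-06) and -0.52, and the interaction was -0.81 (edgeR adjusted p = 8.10e-09). SLC7A1, which imports arginine and lysine, showed log2 0.19 (edgeR adjusted p = 0.00237) and -0.24. SLC1A4, SLC38A2 and SLC43A1, carriers of neutral amino acids, had log2 fold changes of 0.11 to 0.12 in the 4 libraries and did not pass (edgeR adjusted p = 0.0812 to 0.127). The interaction passed for SLC1A4 and SLC43A1 and not for SLC38A2 (log2 -0.19, edgeR adjusted p = 0.233).

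SLC7A11, the cystine carrier that feeds glutathione synthesis, had the largest ratio of NT control levels between the 4 libraries and the pair among the listed genes with at least 1 CPM. It was at 132 and 137 CPM in NT control replicates 1 and 3, 134 and 138 CPM in IKZF1-ko replicates 2 and 3, and 39.5 and 27.1 CPM in the pair. Groups overlapped in the 4 libraries (log2 0.02, SE 0.05, edgeR adjusted p = 0.876), while NT control was 3.41-fold higher in the 4 libraries than in the pair. Within the pair the knockout was lower (log2 -0.54, 95% counting interval -0.73 to -0.36), and the interaction passed (log2 -0.56, edgeR adjusted p = 0.0059).

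Of the 11 cytosolic tRNA synthetases, which load amino acids onto their tRNAs, both knockout libraries were above both controls in the 4 for all 11, and 8 passed. Over all genes, these shares were 27.7% and 7.64%. The log2 fold changes of the synthetases lay in a narrow band from 0.05 to 0.32. CARS1, for cysteine, had the highest of these: it was at 96.7 and 100 CPM in NT control replicates 1 and 3, 126 and 120 CPM in IKZF1-ko replicates 2 and 3, and 74.5 and 56.7 CPM in the pair (log2 0.32, SE 0.05, edgeR adjusted p = 7.47e-05). SARS1, for serine, was at 121, 120, 149 and 144 CPM in the 4 libraries and 114 and 108 CPM in the pair. Its 1.22-fold rise in the 4 (edgeR adjusted p = 1.66e-04) came with an interval of the pair that included 0, log2 -0.18 to 0.02. WARS1, for tryptophan, was at 163 and 170 CPM in NT control replicates 1 and 3, 205 and 195 CPM in IKZF1-ko replicates 2 and 3, and 133 and 89.7 CPM in the pair. It had the largest interaction of the synthetases (log2 -0.84, edgeR adjusted p = 1.53e-07).

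EPRS1, for glutamate and proline, was the synthetase higher in knockout in both contrasts. It was at 626 and 663 CPM in NT control replicates 1 and 3, 750 and 759 CPM in IKZF1-ko replicates 2 and 3, and 548 and 610 CPM in the pair. The log2 values were 0.23 (SE 0.04, edgeR adjusted p = 2.49e-04) in the 4 libraries and 0.15 (95% counting interval 0.11 to 0.20) in the pair, and the interaction did not pass (log2 -0.07, edgeR adjusted p = 0.664). AARS1, GARS1 and TARS1, for alanine, glycine and threonine, rose by log2 0.22 to 0.26 in the 4 libraries (edgeR adjusted p = 7.99e-05 to 3.61e-04) and were 1.07-fold to 1.22-fold lower in the knockout of the pair. YARS1, for tyrosine, passed narrowly (log2 0.12, edgeR adjusted p = 0.0401) and lost the call whichever library was left out.

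IARS1, MARS1 and NARS1, for isoleucine, methionine and asparagine, did not pass in the 4 libraries, with log2 fold changes of 0.05, 0.08 and 0.07 (edgeR adjusted p = 0.508, 0.234 and 0.339). All 3 carry the printed core, which was found in 10 of 23 genes that rose and had a window and in 6 of 12 that did not pass. MARS1 was at 252, 241, 263 and 259 CPM in the 4 libraries and 161 and 112 CPM in the pair, and its interaction passed (log2 -0.61, edgeR adjusted p = 1.54e-05). XPOT, which carries tRNA out of the nucleus, was at 311 and 309 CPM against 308 and 321 CPM in the 4 libraries (edgeR adjusted p = 0.835) and at 254 and 276 CPM in the pair.

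In each of the 4 metabolic roles the median was above 0 in the 4 libraries and below 0 in the pair. The median log2 fold change in the 4 libraries was 0.20 for serine and one-carbon enzymes (4 of 5 rose), 0.19 for the enzymes around asparagine and proline (3 of 6), 0.13 for transporters (4 of 8) and 0.23 for the synthetases (8 of 11). The median difference in the pair was -0.30, -0.27, -0.29 and -0.21 in the same order, and the median interaction -0.65, -0.69, -0.45 and -0.36. These medians describe the lists, and differences between them were not tested.

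**Figure D4:**
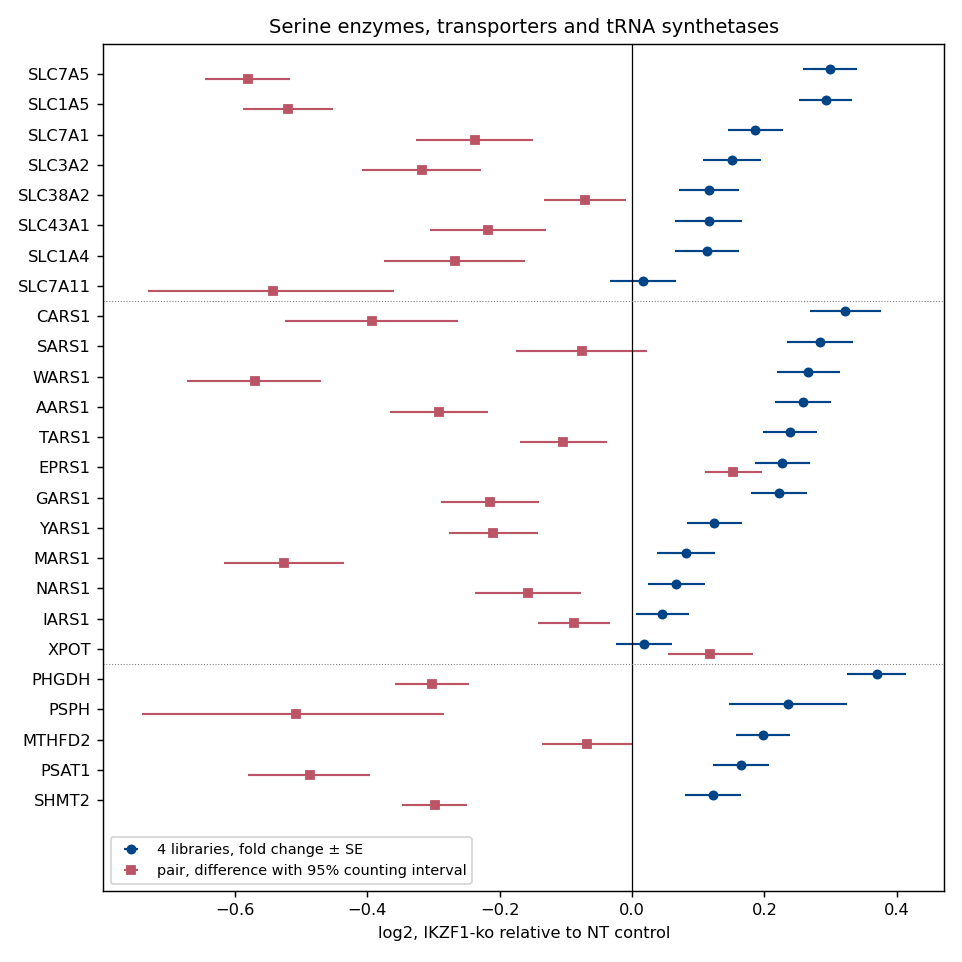
Log2 of IKZF1-ko relative to NT control for transporters (top), tRNA synthetases with XPOT (middle) and serine and one-carbon enzymes (bottom). Blue circles are fold changes in the 4 libraries ± SE of the edgeR fit, and red squares are the single pair with its 95% counting interval, so the bars of the 2 are not the same kind of error. Red squares lie left of 0 for all genes drawn except EPRS1 and XPOT.

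The wider lists hold other genes of the same pathways. Of 17 genes that act upstream of ATF4 or feed back on it (eIF2 kinases with the GCN2 regulators GCN1 and IMPACT, subunits of eIF2 and of its exchange factor eIF2B, regulatory subunits of the eIF2 phosphatase, and DELE1 and OMA1 of the mitochondrial stress relay), 1 rose in the 4 libraries and 0 fell, against 7.64% and 7.10% of all genes. That gene was EIF2S3, the gamma subunit of eIF2 (log2 0.15, edgeR adjusted p = 0.0127), and it lost the call in 3 of the 4 fits that leave a library out. Among other cytosolic synthetases and scaffold subunits, LARS1, for leucine, rose (log2 0.17, edgeR adjusted p = 0.00873) and FARSA fell. FARSA, a subunit of the phenylalanine enzyme, was at 291 and 285 CPM in NT control replicates 1 and 3, 246 and 241 CPM in IKZF1-ko replicates 2 and 3, and 320 and 216 CPM in the pair (log2 -0.24, edgeR adjusted p = 1.67e-04). Of 17 mitochondrial synthetases, 0 rose and LARS2 and MARS2 fell (log2 -0.28 and -0.24, edgeR adjusted p = 0.00157 and 0.0184). The shares over all genes were again 7.64% and 7.10%. With so few genes, the counts of this list and of the upstream list are near these shares. They are no result about either list. LARS1, LARS2 and MARS2 each lost the call in at least 1 fit that leaves a library out.

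Among 19 tested genes of a list of 23 further ATF4 targets and partners, 9 rose and 2 fell in the 4 libraries, against the same shares of all genes. DDIT4, which encodes the mTORC1 inhibitor REDD1, was at 81.6 and 87.6 CPM in NT control replicates 1 and 3, 162 and 153 CPM in IKZF1-ko replicates 2 and 3, and 70.9 and 80.9 CPM in the pair. It rose 1.86-fold in the 4 (edgeR adjusted p = 6.76e-13) and was also higher in the knockout of the pair (log2 0.19, 95% counting interval 0.07 to 0.31). PCK2, the mitochondrial PEP carboxykinase, was at 182, 180, 253 and 249 CPM in the 4 libraries and 183 and 137 CPM in the pair, with log2 0.47 (edgeR adjusted p = 6.66e-09) and -0.42. SESN2, a leucine sensor upstream of mTORC1, rose by log2 0.36 in the 4 (edgeR adjusted p = 1.19e-04) and was lower in the pair (-0.57), while CLIC4, a chloride channel protein, was higher in both (0.29, edgeR adjusted p = 5.33e-04, and 0.32).

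Of 20 other enzymes of serine, glycine, folate and related amino acids, 15 were tested, 2 rose and 2 fell in the 4 libraries; with so few genes these counts are near the 7.64% and 7.10% of all genes and are no result about the list. ASS1, which joins citrulline and aspartate on the way to arginine, was at 159 and 161 CPM in NT control replicates 1 and 3, 295 and 281 CPM in IKZF1-ko replicates 2 and 3, and 346 and 356 CPM in the pair. It rose 1.80-fold in the 4 (edgeR adjusted p = 3.88e-14), with an interval of the pair that included 0 (log2 -0.01 to 0.10). ALDH1L2, a mitochondrial folate dehydrogenase, was at 111, 116, 171 and 171 CPM in the 4 libraries and 124 and 127 CPM in the pair, and rose 1.51-fold in the 4 (edgeR adjusted p = 5.07e-10). TYMS, the thymidylate synthase, and PYCR3, a cytosolic proline enzyme, fell (log2 -0.21 and -0.27, edgeR adjusted p = 7.06e-04 and 0.0265), and PYCR3 lost the call in 3 of the 4 fits that leave a library out.

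How far the calls reach depends on how the pair is handled. With all 6 libraries and a term for the division, 3 of the 41 listed genes passed in edgeR as higher, CTH, VLDLR and EPRS1 (7.32%, against 6.93% of all genes). With 1 surrogate variable 5 did, CHAC1, MTHFD2, CTH, VLDLR and EPRS1 (12.2%, against 4.39% of all genes). The share with the division term is at the background. With 1 library of each group in the pair, a knockout difference there and a difference between single libraries cannot be told apart.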

How the data were processed

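The authors deposited read counts per gene, whole numbers with no scaling, in 1 table with 1 column per library and 0 columns of other samples. Per the submitters' processing notes, Trimmomatic and STAR were used with GRCh38. For the counter, its strand setting and its treatment of reads that fit several genes, nothing is stated in these sources, although the labels' protocols name a stranded kit. Genes sharing exon positions on the same strand (ATF5, DDIT3, ASNS, PYCR1 and MARS1) or having named pseudogenes (among them ATF4, PSAT1, MTHFD2 and ASNS) are therefore uncertain, as are JDP2, SHMT2, MTHFD2, GOT1, VLDLR, SLC7A11, SLC7A5, SLC1A5, CARS1, GARS1, WARS1 and YARS1, which overlap genes on the opposite strand, if strand was ignored. Columns were matched to samples by library name. Identifiers were matched through GENCODE release 29 (57895 of 58233) and a gene name table (57392).

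The members, the wider lists (5, with 89 genes), the library division and the tests were chosen with earlier results of these data known. Every listed gene is described; of each wider list, up to 4 genes past the threshold by lowest adjusted p are named, and 1 gene that this rule gives is not reported here. Counts were filtered with filterByExpr and tested in edgeR 4.0.16 (R 4.3.3) by its two-sided quasi-likelihood test (TMM, Benjamini-Hochberg over all genes tested, threshold 0.05): 4 libraries on group, 6 libraries on group, and 6 libraries on division, group and their interaction. Log2 CPM used a prior count of 2. Differences within the pair are of log2 CPM, with exact binomial 95% intervals on the counts. With 3 libraries a group, an exact permutation test could not go below p = 0.1 and was not used. Alternatives were DESeq2 1.42.0, RLE scaling, no filter, thinning, a surrogate variable (sva 3.50.0), a replicate block and leaving out each library. Promoter windows came from RefSeq (GRCh38.p14) and held 36 of the 44 genes. Figures were drawn with matplotlib 3.10.9.

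Totals ranged from 11300519 to 18214328 counts. On simulated counts, the test on the 4 libraries (12951 genes) recovered 46% of genes changed 1.2-fold, 64% of 1.5-fold, 88% of 2-fold and 94% of 4-fold changes, with 4 false calls of 150. The interaction (13028 genes) recovered 8%, 58%, 78% and 96%, with 10 false calls of 131. That simulation gave the pair the spread of the 4 libraries, so its false calls do not cover a pair that varies more. The test on group over all 6 (13028 genes) recovered 0%, 0%, 2% and 46%, with 0 false calls of 24. Here the division entered both the simulated means and the simulated spread, so these shares may be too low.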

Additional observations from a re-analysis of the deposited data

Results flagged for a closer look

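For 29 of the 41 listed genes tested over all 6 libraries, the group difference in the pair lay below that in the 4 libraries by the interaction test of edgeR, whose spread comes from the 4 libraries alone. Over all genes tested, 1.57% passed in that direction. Among the regulators the log2 interaction was -0.63 for ATF5, -0.93 for DDIT3, -0.83 for TRIB3, -1.12 for CHAC1, -1.02 for JDP2 and -0.66 for EIF4EBP1. The serine and one-carbon enzymes gave -0.67 for PHGDH, -0.65 for PSAT1, -0.75 for PSPH, -0.42 for SHMT2 and -0.27 for MTHFD2. The other amino acid enzymes gave -0.73 for ASNS, -1.63 for PYCR1 and -0.67 for GPT2. The transporters gave -0.56 for SLC7A11, -0.88 for SLC7A5, -0.42 for SLC7A1, -0.47 for SLC3A2, -0.81 for SLC1A5, -0.38 for SLC1A4 and -0.33 for SLC43A1. The synthetases gave -0.55 for AARS1, -0.72 for CARS1, -0.44 for GARS1, -0.61 for MARS1, -0.36 for SARS1, -0.34 for TARS1, -0.84 for WARS1 and -0.34 for YARS1.

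Named genes outside the list that also differed between the contrasts were SESN2 (log2 interaction -0.93), DDIT4 (-0.71), PCK2 (-0.89), FARSA (-0.32), ALDH1L2 (-0.56) and ASS1 (-0.81). DDIT4, ALDH1L2 and ASS1 had higher values with knockout in both contrasts, FARSA had lower values in both, and SESN2 and PCK2 were on opposite sides.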

How the results depend on the processing

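The count of listed genes that rose in the 4 libraries, 27, was 22 with DESeq2, 26 with RLE scaling, 28 with no filter on low counts, 27 with thinned counts and 23 to 26 when a library was left out, which leaves 1 library in a group that is assumed to vary like the other group. Over all 6 libraries it was 3 with a term for the division and 5 with 1 surrogate variable. Of 80 genes tested on the wider lists, 21 were called in either direction, against 1908 of 12951 genes in all (14.7%). With the division term 15 of 80 were called, against 1765 of 13028 in all. With the surrogate variable 8 of 80 were called, against 1031 of 13028 in all. The interaction count of 29 was 19 with DESeq2, where 10 genes lost the call. Over all genes, DESeq2 called 825 in the 4 libraries against 1908, and 68 interactions against 295; the division term gave 1765 and the surrogate variable 1031. On group over 6 libraries, 0 listed genes passed under every setting, with 0 to 0 when a library was left out, while over all genes DESeq2 called 71 and no filter 8. Same-numbered libraries' deviations from their group means correlated at -0.655, -0.689 and 0.588. These signs follow the library division, so they cannot tell whether the replicate numbers pair the libraries. With the replicate block 0 listed genes passed. In the pair, 36 listed genes were lower with RLE scaling and with a prior count of 0.5.

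Some signs turned. With the division term, log2 was -0.0935 for EIF4EBP1, -0.0333 for PSAT1, -0.0175 for SHMT2, -0.12 for GPT2, -0.11 for SLC7A11, -0.00602 for SLC1A4, -0.11 for MARS1 and -0.00462 for NARS1. With the surrogate variable it was -0.0161 for EIF4EBP1, -0.00830 for SHMT2, -0.0581 for GPT2, -0.0122 for SLC43A1 and -0.00456 for MARS1. With a library left out, log2 ran from -0.0285 to 9.2e-05 for ATF4 (above 0 without IKZF1-ko replicate 3) and from -0.00954 to 0.0484 for XPOT (below 0 without the same library). For SLC7A11 it ran from -0.00760 to 0.0400, below 0 without NT control replicate 1 and, at -0.0041, without IKZF1-ko replicate 3. The cause of these changes was not tested. NUPR1 and STC2 rest on 4 and 8 NT control counts in the 4 libraries.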
